A study of Homo sapiens with 14 samples.

Results

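The short arm of human chromosome 19 carries a dense run of zinc finger genes in band 19p12, and their transcript levels were followed here in 293 cells that express engineered RNA-editing enzymes. The members were all genes whose symbol starts with ZNF and whose transcript starts between 19.5 and 24.5 Mb on chromosome 19 (hg19), and they number 36 of the 22410 genes with a named transcript. ZNF257 and ZNF738 are singled out within the set because of their levels in these same libraries (they were chosen by their higher counts in the SNAP-ADAR lines than in ctrl), so their values are given as a description with no test, and the tests below are on the other 34 genes, called the neighbours.

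Most genes of this region encode proteins with a KRAB domain at one end and a row of C2H2 zinc fingers at the other. The fingers bind DNA, in many cases within transposable elements, and the KRAB domain recruits TRIM28, a corepressor that brings in the histone methyltransferase SETDB1 and leads to heterochromatin. The cluster grew by repeated gene duplication in primates, and ZNF91 and ZNF93 are members known to repress SVA and LINE-1 retrotransposons.

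RNA sequencing of polyadenylated RNA covered 14 libraries in 7 groups of 2, all from 293 Flip-In T-REx cells, which derive from human embryonic kidney and hold a single site for a transgene. SA1Q cells carried a SNAP-ADAR1Q gene and SA2Q cells a SNAP-ADAR2Q gene, which are fusions of the SNAP tag to the deaminase part of ADAR or of ADARB1, and the sample descriptions give the alleles as E406Q and E403Q. SA1Q+gRNA and SA2Q+gRNA are the same lines with a guide RNA, SA1+gRNA and SA2+gRNA are the lines without the glutamine change with a guide RNA, and ctrl is the same parent line with an empty vector, whose labels name no guide. The sources used here give neither the guide's target nor the number of clones behind each line, nor whether the transgene was induced. The design text counts the replicates as biologically independent.

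The members lay along the interval with 18 on the plus strand and 18 on the minus strand. ZNF738, which the files carry under a non-coding RefSeq accession, spans 21541735 to 21571384 on the plus strand with a transcript of 11721 nt. ZNF257, a C2H2 zinc finger gene, spans 22235266 to 22273903 on the plus strand with a transcript of 3520 nt. Between them lie ZNF493, ZNF429, ZNF100, ZNF43 and ZNF208. Only ZNF100 overlapped another gene of the files, CCNYL6 on the opposite strand.

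The promoters of the region are shown first, because they are a feature that members share and that the choice of members did not use. RefSeq (GRCh38.p14) promoter windows, 250 bases before to 50 bases after the start, matched 27 of the 36 members. The match was by gene name and not by the transcript counted. For ZNF43 and ZNF254 the window lies at another start than that of the counted transcript. ZNF738 was not among the 27, so the promoter results do not cover it. The sequences below are those of ZNF257 (chr19:22052234-22052533, plus strand), of ZNF730 and ZNF90, whose levels were also low in ctrl (chr19:23116775-23117074 and chr19:20077750-20078049, both plus strand), and of ZNF43, an abundant neighbour of ZNF257 (chr19:21836133-21836432, minus strand). Capitals mark the motifs CCAAT (the letters bound by NF-Y) and CTTCCGG (letters of the ETS family type), searched on both strands and chosen after the promoters had been looked at.
ZNF257: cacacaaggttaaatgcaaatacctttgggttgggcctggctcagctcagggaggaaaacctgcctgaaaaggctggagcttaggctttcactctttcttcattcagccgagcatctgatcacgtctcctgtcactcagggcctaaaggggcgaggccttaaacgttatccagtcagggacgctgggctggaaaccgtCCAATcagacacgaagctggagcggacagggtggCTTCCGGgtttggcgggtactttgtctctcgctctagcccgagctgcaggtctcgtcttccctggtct
ZNF730: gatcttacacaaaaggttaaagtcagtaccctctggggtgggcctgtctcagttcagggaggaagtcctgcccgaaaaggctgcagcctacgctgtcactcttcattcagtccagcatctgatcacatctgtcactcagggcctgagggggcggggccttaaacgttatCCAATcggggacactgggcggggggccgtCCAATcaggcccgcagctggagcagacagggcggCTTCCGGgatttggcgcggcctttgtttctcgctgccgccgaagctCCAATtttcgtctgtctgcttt
ZNF90: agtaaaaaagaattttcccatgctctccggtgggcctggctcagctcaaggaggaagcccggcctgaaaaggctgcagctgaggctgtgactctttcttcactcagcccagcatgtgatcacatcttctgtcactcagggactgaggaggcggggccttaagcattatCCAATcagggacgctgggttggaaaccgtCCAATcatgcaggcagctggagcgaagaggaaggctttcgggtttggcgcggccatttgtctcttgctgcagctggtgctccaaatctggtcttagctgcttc
ZNF43: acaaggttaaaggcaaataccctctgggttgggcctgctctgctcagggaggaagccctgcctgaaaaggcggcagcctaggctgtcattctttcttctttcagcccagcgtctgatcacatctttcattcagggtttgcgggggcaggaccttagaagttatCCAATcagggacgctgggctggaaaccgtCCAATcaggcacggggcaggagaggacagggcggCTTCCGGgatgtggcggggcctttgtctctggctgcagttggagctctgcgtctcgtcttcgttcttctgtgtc

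All 27 matched promoters (100%) held CCAAT or its reverse ATTGG, against 34.61% of 35116 promoters in the table. CTTCCGG or its reverse CCGGAAG was in 19 of the 27 (70.37%), against 10.26% of all promoters. ZNF257, ZNF730 and ZNF43 held both motifs, and ZNF90 held CCAAT only. The windows were also alike as whole sequences. In a global alignment, the other 26 matched members shared a median of 80.5% of the 300 bases with ZNF257, with a range of 61.33% to 83.67%. For 198 ZNF genes elsewhere on chromosome 19 the median was 59.33% and the range 54% to 68%, and for 9 other genes of the interval the median was 58%. ZNF43 shared 83.67% of its bases with ZNF257, ZNF730 80.67% and ZNF90 78.67%. These are descriptions of related sequences and not binding sites. Within this window the promoter of ZNF257 was at least as close to that of ZNF43 as to those of ZNF730 and ZNF90. The ZNF43 window is not at the start of its counted transcript, so it cannot be set against the level of ZNF43. The part of promoter sequence in the levels was not tested.

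Levels per length spread over a wide range within the set. Counts were scaled to library size (TMM) and are given on the CPM scale, and, where genes are compared with each other, as CPM per kb of transcript. The 5 highest members were ZNF675 at 5.74 CPM per kb, ZNF254 at 5.03, ZNF100 at 4.58, ZNF101 at 4.28 and ZNF430 at 3.73, as means over the 14 libraries. ZNF675 encodes a zinc finger protein reported to dampen TRAF6 signalling. ZNF257 stood at 0.622 CPM per kb, place 23 of 36, and ZNF738 at 0.0631 CPM per kb, place 29. The lowest member was ZNF626 at 0.0068 CPM per kb. These values use the transcript size in the files, and the GENCODE transcript matched by accession (by symbol for 1 member) is of another length for several members. By GENCODE lengths ZNF738 (2442 nt) would be at 0.303 CPM per kb, place 25, ZNF101 would be at place 16 and ZNF85, with a GENCODE length of 483 nt, at place 1, while ZNF257 would stay at place 23. The median over the 31 members that passed the filter on low counts was 1.85 CPM per kb, against 3.48 for 215 ZNF genes elsewhere on chromosome 19, 4.23 for 265 ZNF genes on other chromosomes and 6.07 for all 16418 genes tested. Transcripts of the members were also poor in G and C, with a median of 37.6%, against 43.13% for the ZNF genes elsewhere on chromosome 19 and 50% for all genes tested.

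**Figure D1:**
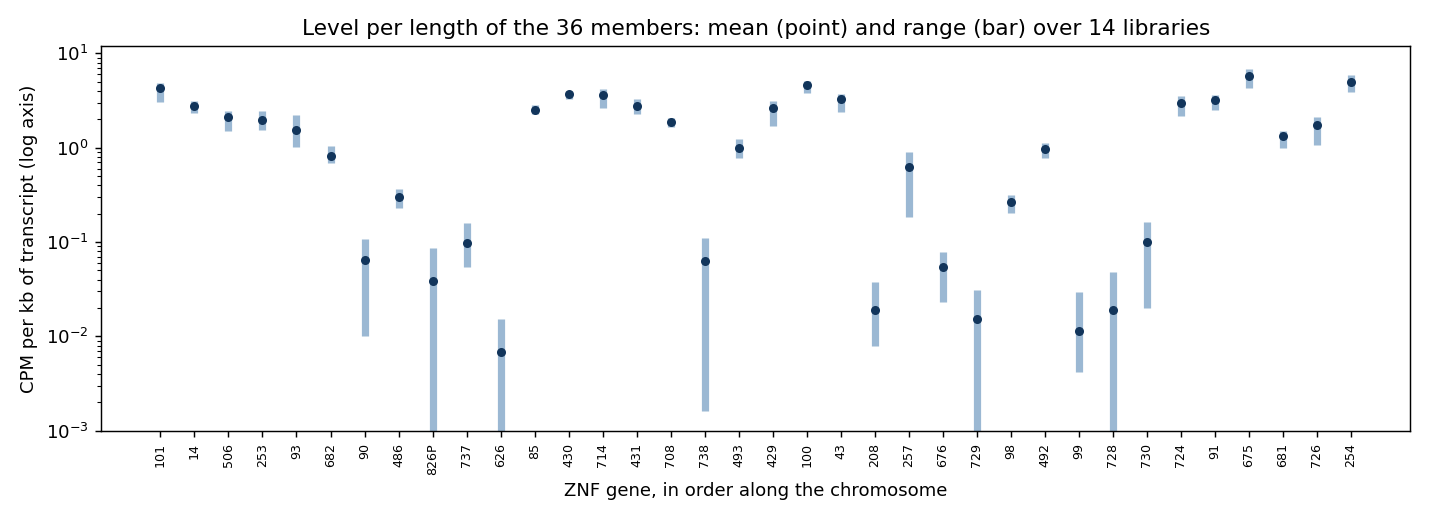
Level of each of the 36 members in CPM per kb of transcript (log axis), in order along the chromosome; points are means over 14 libraries and bars run from the lowest to the highest library, ending at the axis floor where a library held no count. The members run from 0.0068 CPM per kb (ZNF626) to 5.74 (ZNF675), with low and high members side by side.

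Of the 36 members, 5 did not pass the filter, which were ZNF826P, ZNF626, ZNF729, ZNF99 and ZNF728, with at most 4, 6, 6, 15 and 8 counts in any library. For 8 members the files held several transcripts, and the one with the highest mean stood for the gene. Near-identical sequence makes some members uncertain: 34.7% of the 100-nt windows of ZNF98 also occur in ZNF492, and 52.1% of those of ZNF724 in another transcript, AC092329.3. ZNF257 and ZNF730 had none of their windows in another gene. Nor had ZNF738, but the windows came from its GENCODE transcript of 2442 nt, so most of the 11721 nt counted in the files was not checked.

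Facts of the whole series that touch these results are few. Depth was 43.0 to 130.1 M fragments a library, and SA1+gRNA replicate 2, the deepest, held even counts only. ADAR reached 1085 to 1603 CPM in the 6 libraries of SA1 lines and 297 to 340 CPM elsewhere, and ADARB1 reached 939 to 1163 CPM in the 6 libraries of SA2 lines and 25.5 to 37.2 CPM elsewhere, as labelled. Of the markers of 293 cells, KRT8 was at 231 to 349 CPM, KRT18 at 114.5 to 147 CPM and VIM at 958 to 1285 CPM. INA was at 49.7 to 76.3 CPM, while PAX2 at 2.3 to 5.3 CPM and NEFM at 0.82 to 1.78 CPM were low. Of the blood markers, PTPRC stayed at or under 0.41 CPM, while CD68 was at 10.7 to 21.8 CPM and LCP1 at 110 to 164 CPM. Of the fibroblast markers, DCN and LUM stayed at or under 0.47 CPM, COL3A1 at or under 1.12 CPM, COL1A1 was at 4.93 to 8.43 CPM, and COL6A3 was highest in ctrl replicate 1 at 2.53 CPM. The endothelial markers PECAM1 and VWF stayed at or under 0.12 and 0.98 CPM, and the brain markers GFAP and SNAP25 reached 0.67 and 4.88 CPM. The part of these transcripts in the results was not tested. Along the first principal component, which held 24.4% of the variance, ctrl replicate 1 (46.6) and SA1Q+gRNA replicate 1 (49.8) stood apart from the other 12 libraries (-13.98 to -0.19). Results that rest most on them are given with and without them.

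ZNF257 was lowest in the ctrl libraries. Its level was 2.795 and 2.403 CPM in SA1Q, 3.156 and 2.681 CPM in SA2Q, 1.775 and 2.185 CPM in SA1Q+gRNA, and 2.791 and 2.936 CPM in SA2Q+gRNA. It was 1.857 and 1.619 CPM in SA1+gRNA and 2.684 and 2.354 CPM in SA2+gRNA, against 0.788 and 0.644 CPM in ctrl. None of the 12 SNAP-ADAR libraries overlapped with ctrl, and the lowest of them, SA1+gRNA replicate 2, was at 1.619 CPM. These levels rest on 33 and 34 counts in the ctrl libraries. In bulk RNA, fewer cells with a transcript and less of it per cell cannot be told apart.

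Group means of ZNF257 ran in the order SA2Q, SA2Q+gRNA, SA1Q, SA2+gRNA, SA1Q+gRNA, SA1+gRNA and ctrl. The libraries of neighbouring groups in that order overlapped, except that both SA2+gRNA libraries lay above both of SA1Q+gRNA and that ctrl lay below all. The log2 change against ctrl was 1.87 ± 0.22 in SA1Q, 2.03 ± 0.21 in SA2Q, 1.49 ± 0.22 in SA1Q+gRNA, 2.01 ± 0.21 in SA2Q+gRNA, 1.28 ± 0.22 in SA1+gRNA and 1.82 ± 0.22 in SA2+gRNA (SE, 2 libraries a group). As ratios of group means these are 3.63, 4.08, 2.77, 4.0, 2.43 and 3.52. The 6 comparisons share the ctrl libraries and are not independent of each other. Between SNAP-ADAR groups the differences were smaller: with guide against without, the log2 change was -0.38 ± 0.19 in SA1Q and -0.02 ± 0.18 in SA2Q. SA1Q+gRNA against SA2Q+gRNA gave -0.52 ± 0.18, SA1Q against SA2Q gave -0.16 ± 0.18, SA1Q+gRNA against SA1+gRNA 0.21 ± 0.19, and SA2Q+gRNA against SA2+gRNA 0.19 ± 0.18. Without ctrl replicate 1 and SA1Q+gRNA replicate 1, the log2 changes against ctrl ran from 1.41 to 2.17, with 1.76 ± 0.31 in SA1Q+gRNA. In the same fit SA1Q+gRNA gave -0.25 ± 0.22 against SA1Q, -0.39 ± 0.22 against SA2Q+gRNA and 0.35 ± 0.22 against SA1+gRNA.

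ZNF738 was near the floor of detection in ctrl. It was at 1.17 and 0.579 CPM in SA1Q, 0.523 and 0.509 CPM in SA2Q, 1.13 and 1.30 CPM in SA1Q+gRNA, and 0.734 and 0.562 CPM in SA2Q+gRNA. SA1+gRNA had 0.947 and 0.4625 CPM and SA2+gRNA 1.08 and 1.23 CPM, against 0.0955 and 0.0189 CPM in ctrl. The 2 ctrl libraries held 4 and 1 counts, and the 12 others 25 to 79, with no overlap.

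Its log2 change against ctrl was 4.0 ± 0.64 in SA1Q, 3.23 ± 0.69 in SA2Q, 4.47 ± 0.62 in SA1Q+gRNA, 3.55 ± 0.66 in SA2Q+gRNA, 3.60 ± 0.65 in SA1+gRNA and 4.40 ± 0.62 in SA2+gRNA (SE, 2 libraries a group). The ratio of summed counts, scaled to depth, was lowest in SA2Q at 9.76 and highest in SA1Q+gRNA at 23.4. Both rest on 5 counts in ctrl, and no interval is given because the gene was chosen by these counts. These sizes turn on the ctrl libraries: without ctrl replicate 1 the 6 log2 changes ran from 4.62 to 5.86, and without ctrl replicate 2 from 2.41 to 3.65. Group means ran in the order SA1Q+gRNA, SA2+gRNA, SA1Q, SA1+gRNA, SA2Q+gRNA, SA2Q and ctrl, which differs from the order of ZNF257. The libraries of neighbouring groups in that order overlapped, except that both SA2Q libraries lay below both of SA2Q+gRNA and that ctrl lay below all. With guide against without, the log2 change was 0.47 ± 0.39 in SA1Q and 0.33 ± 0.43 in SA2Q. It was 0.91 ± 0.39 for SA1Q+gRNA against SA2Q+gRNA and -0.84 ± 0.39 for SA2Q+gRNA against SA2+gRNA. Without both libraries that stand apart the log2 changes against ctrl ran from 4.62 to 5.95, and SA1Q+gRNA gave 0.55 ± 0.41 against SA1Q and 1.0 ± 0.42 against SA2Q+gRNA.

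**Figure D2:**
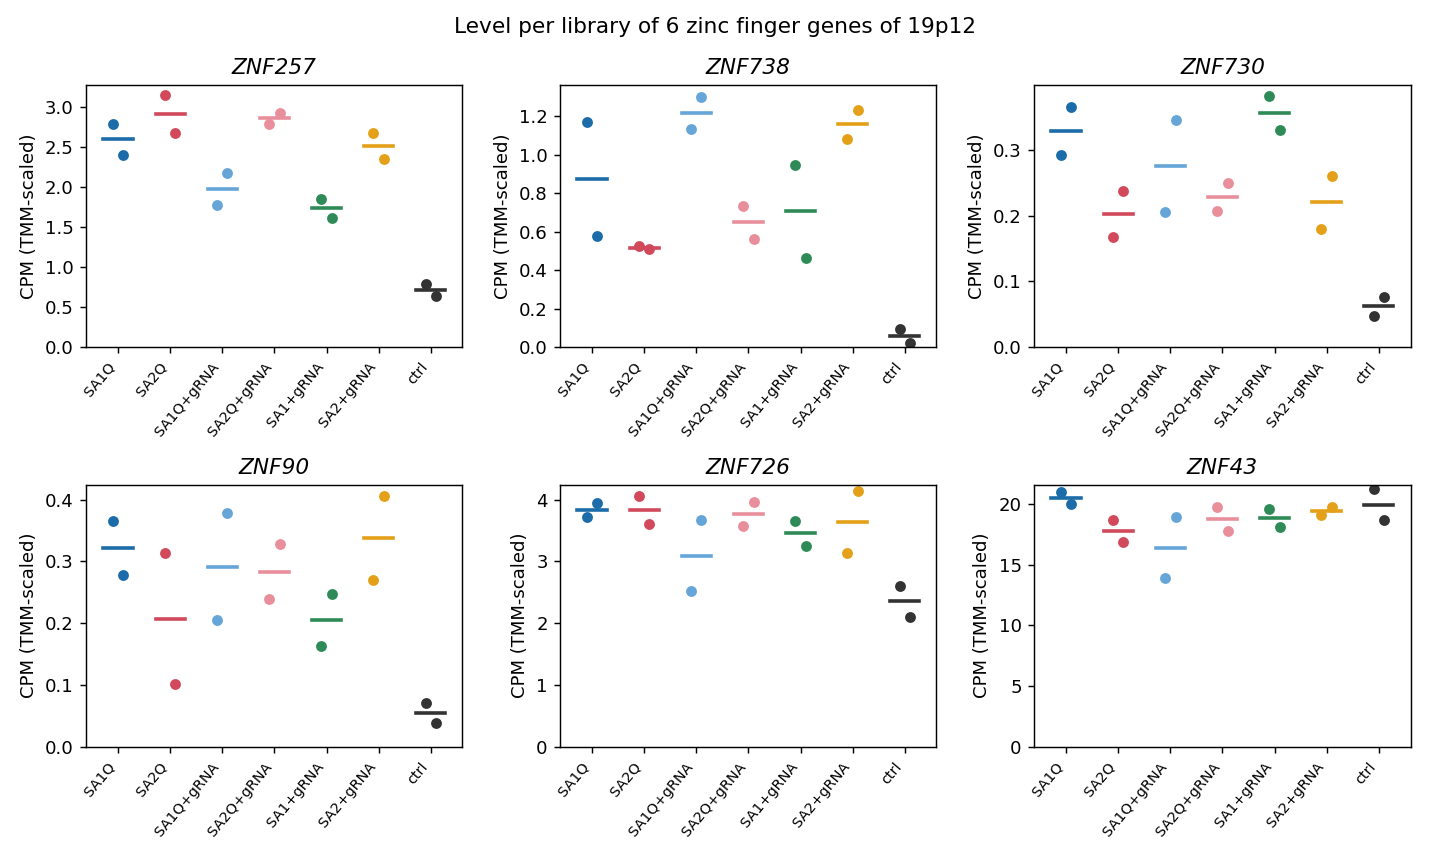
Level per library in CPM (TMM-scaled, axis from 0) of 6 zinc finger genes of 19p12, with the SNAP-ADAR groups on the left and ctrl at the right; points are libraries and bars are means of the 2. ZNF257 and ZNF738 have all 12 SNAP-ADAR libraries above both ctrl libraries.

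The genes on each side of ZNF257 did not pass the test in any of the 12 comparisons. ZNF43, a KRAB zinc finger gene and the second before ZNF257, was at 21.0 and 19.97 CPM in SA1Q and 18.7 and 16.9 CPM in SA2Q, against 21.2 and 18.7 CPM in ctrl, and its log2 changes against ctrl ran from -0.27 to 0.04. ZNF208 and ZNF676, the next genes before and after ZNF257, were read at 3 to 22 counts a library. The log2 change of ZNF208 was highest in SA2Q+gRNA against ctrl, at 1.12 ± 0.61 (adjusted p = 0.554), and that of ZNF676 was highest in SA2Q against ctrl, at 0.70 ± 0.57 (adjusted p = 0.779). ZNF729, the second gene after ZNF257, had 0 to 6 counts a library and was not tested.

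Around ZNF738 the neighbours were better covered and none passed the test. ZNF431, known in mouse for repressing the Hedgehog receptor gene Ptch1, was at 11.01 and 11.8 CPM in SA1Q, against 11.1 and 11.3 CPM in ctrl. Its log2 changes against ctrl ran from -0.20 to 0.03, each with an SE of 0.14. ZNF708, the next gene before ZNF738, ran from -0.18 to 0.09. ZNF493, which starts 8.5 kb after the end of ZNF738 on the same strand, was at 6.12 and 5.19 CPM in SA1Q and 3.89 and 4.31 CPM in SA2Q, against 4.47 and 5.78 CPM in ctrl. Its log2 changes against ctrl ran from -0.32 to 0.14, and its libraries overlapped with ctrl in every group but SA2Q. ZNF429 ran from -0.42 in SA1Q+gRNA to 0.02 in SA2Q, and its adjusted p-values by edgeR's quasi-likelihood test were at least 0.289 against ctrl.

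**Figure D3:**
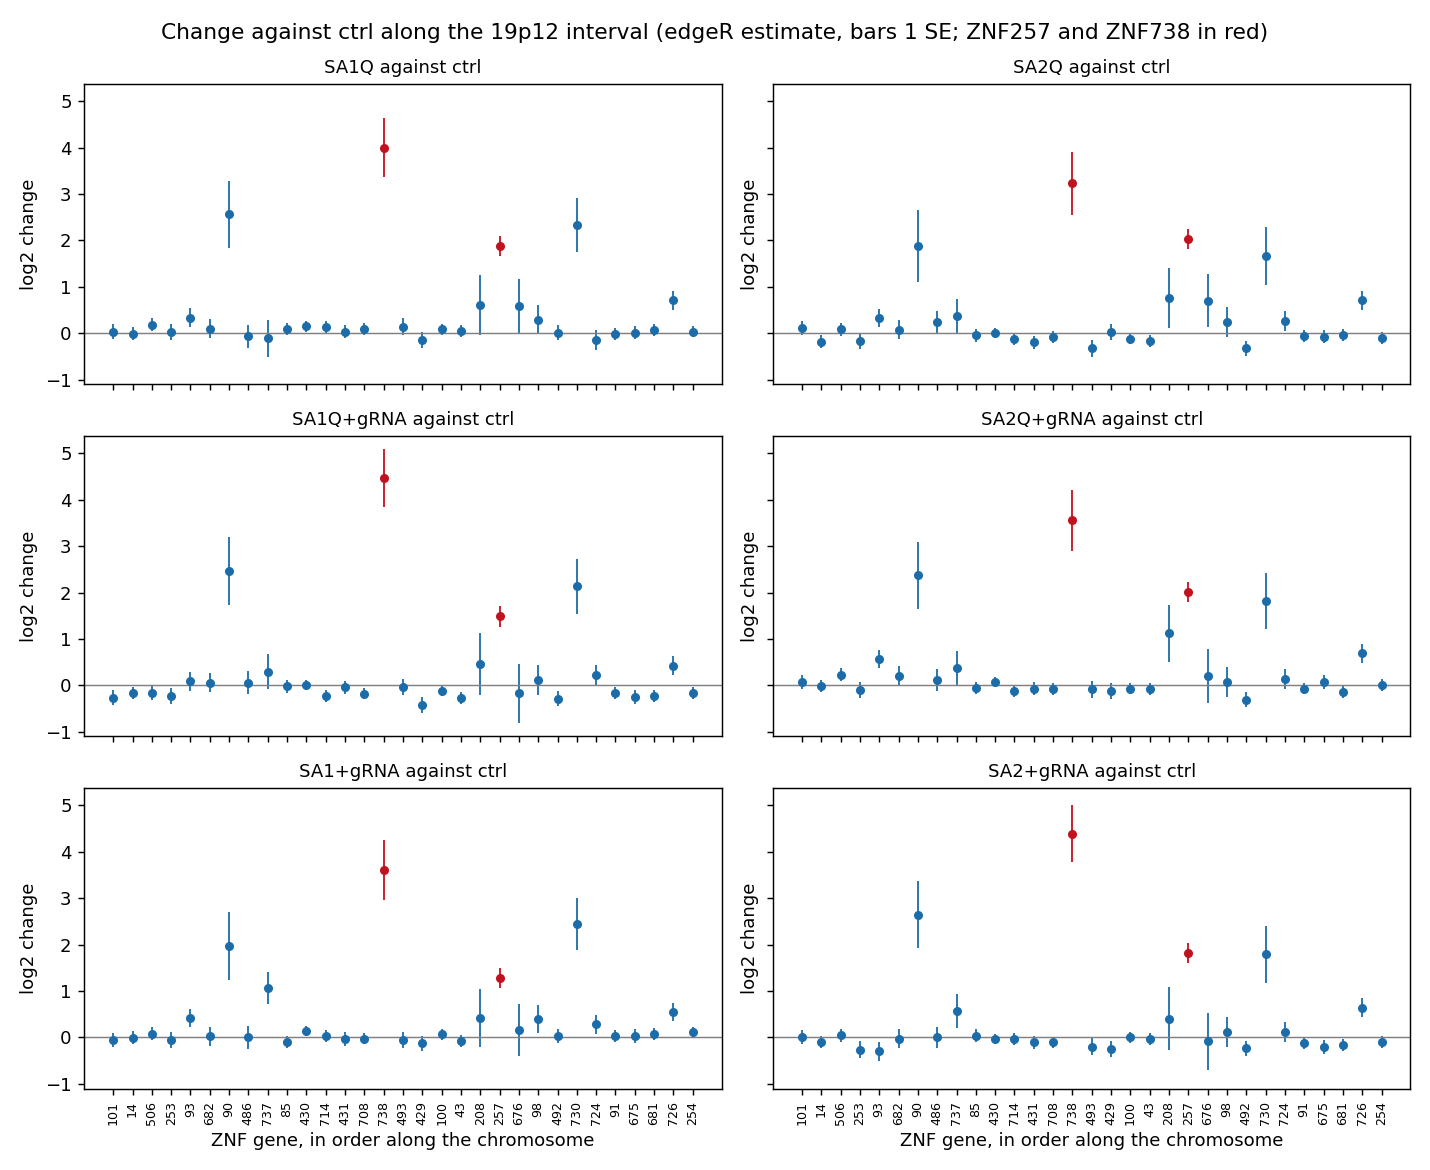
Log2 change against ctrl of each tested member in order along the chromosome, in 6 panels, as edgeR estimates with bars of 1 SE; ZNF257 and ZNF738 are in red. In each panel both red points lie above most of the genes around them, and ZNF90 and ZNF730, elsewhere in the interval, have positive estimates with wide bars.

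Across the set, 1 of the 29 tested neighbours was called in SA1Q against ctrl (adjusted p under 0.05, edgeR's quasi-likelihood test over all genes), where 2.8% of all genes were called in either direction and 1.07% as higher. That is 3.45% of the neighbours, and as a single gene it is not set apart from the share over all genes. The called gene was ZNF730, a KRAB zinc finger gene (23299777 to 23330014, plus strand). It was at 0.292 and 0.365 CPM in SA1Q, against 0.0478 and 0.0757 CPM in ctrl, from 16 and 17 counts against 2 and 4. Its log2 change was 2.33 ± 0.59 (adjusted p = 0.0471), and the ratio of summed counts was 5.14. No interval is given, because the gene is named for its call in these same counts. ZNF730 passed the filter on low counts only through libraries in which it was higher, so its adjusted p describes the call and carries no weight as support.

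The call for ZNF730 was a narrow one. It was lost without any 1 of the 12 libraries outside SA1Q+gRNA, with adjusted p-values of 0.0656 to 0.174, and kept without either SA1Q+gRNA library. Without both libraries that stand apart its adjusted p was 0.0897, with the replicate number as a block it was 0.0529, and with no filter on low counts 0.0521. DESeq2 gave no adjusted p for it. In the other SNAP-ADAR groups its log2 change against ctrl was 1.66 ± 0.62 in SA2Q, 2.13 ± 0.60 in SA1Q+gRNA, 1.82 ± 0.60 in SA2Q+gRNA, 2.44 ± 0.56 in SA1+gRNA and 1.79 ± 0.62 in SA2+gRNA. None of these passed (adjusted p of 0.104 to 0.425), and no difference between SNAP-ADAR groups passed either.

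In the other 5 comparisons with ctrl, 0 of the 29 neighbours were called by edgeR. The background shares over all genes were 0.0853% for SA2Q, 1.04% for SA1Q+gRNA, 0.067% for SA2Q+gRNA, 0.0426% for SA1+gRNA and 0.104% for SA2+gRNA. At an unadjusted p under 0.05 the neighbours numbered 3, 3, 4, 4 and 3 in that order of comparisons. Over all genes the numbers at that threshold were 1455, 2285, 1654, 1750 and 1674 of 16418. DESeq2 and limma called 0 neighbours in each of these 5. Without ctrl replicate 1 and SA1Q+gRNA replicate 1, edgeR called ZNF726 in SA2Q, ZNF93 and ZNF726 in SA2Q+gRNA and ZNF737 in SA1+gRNA, each as higher than in ctrl. These are 3.33%, 6.67% and 3.33% of 30 tested neighbours, where 3.42%, 5.11% and 2.3% of all genes were called in that fit, so they are near the background. For SA1Q against ctrl, DESeq2 called 1 neighbour, ZNF726, where it called 6.54% of all genes, and limma called ZNF730, where it called 3.34%.

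With guide against without, 0 neighbours were called in either line, where 0% of all genes were called. At an unadjusted p under 0.05 there were 4 neighbours in SA1Q+gRNA against SA1Q, beside 2005 of 16418 genes. In SA2Q+gRNA against SA2Q there were 0 neighbours, beside 291 of all genes. DESeq2 and limma called 0 neighbours in both. Between SNAP-ADAR lines 0 neighbours were called by edgeR in SA1Q against SA2Q (0.14% of all genes), SA1Q+gRNA against SA2Q+gRNA (0.0975%), SA1Q+gRNA against SA1+gRNA (0.962%) and SA2Q+gRNA against SA2+gRNA (0.0122%). Those comparisons had 1, 4, 2 and 1 neighbours at an unadjusted p under 0.05. Over all genes the numbers were 2234, 1954, 2857 and 1291 of 16418, and limma called 0 neighbours in each. DESeq2 called 0 in the first 3 and 1 in the last, ZNF93, where it called 0.323% of all genes. The joint test of all 7 groups called 0 neighbours by edgeR, where 1.57% of all genes were called. At an unadjusted p under 0.05 it had 4 neighbours, beside 2753 of all genes. DESeq2 called ZNF93 in the joint test, where it called 8.28% of all genes, and limma called 0. Without the libraries that stand apart, edgeR called ZNF93 in SA2Q+gRNA against SA2+gRNA (0.716% of all genes), and ZNF93 and ZNF737 in the joint test (6.67% of the neighbours, against 11% of all genes).

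ZNF93, which represses LINE-1 elements, is described here after its values were seen, as is ZNF91. It was at 6.24 and 4.69 CPM in SA2Q+gRNA, against 3.18 and 2.86 CPM in SA2+gRNA, and the groups did not overlap. The log2 change was 0.86 ± 0.20 (adjusted p = 0.256 by edgeR, not past the threshold). The ctrl libraries were at 4.47 and 2.99 CPM. ZNF91, the SVA repressor, was at 13.6 to 19.5 CPM over all 14 libraries with ctrl at 18.2 and 17.6 CPM, inside the range.

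Besides ZNF257 and ZNF738, both ctrl libraries were the lowest for ZNF730 and ZNF90. That is 2 of the 29 tested neighbours, or 6.9%, where 2.93% of all genes had all 12 SNAP-ADAR libraries above both ctrl libraries. No member had all 12 below both, against 2.05% of all genes. ZNF730 and ZNF90, like ZNF738, passed the filter only through the SNAP-ADAR libraries, so their number carries no weight as a count. ZNF90 held 6 to 30 counts in the SNAP-ADAR libraries, against 3 and 2 in ctrl. Its log2 changes against ctrl ran from 1.88 ± 0.78 in SA2Q to 2.65 ± 0.72 in SA2+gRNA, and none passed (adjusted p of 0.0697 to 0.482).

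ZNF726 was the member whose profile over the libraries was most like that of ZNF257. It was picked by that likeness, which includes the low ctrl levels, so its changes against ctrl are a description and not support. It was at 3.73 and 3.95 CPM in SA1Q, 4.06 and 3.60 CPM in SA2Q and 2.52 and 3.66 CPM in SA1Q+gRNA, against 2.60 and 2.10 CPM in ctrl. The SA1Q+gRNA libraries overlapped with ctrl through replicate 1. Its log2 change in SA1Q was 0.71 ± 0.20 (adjusted p = 0.0697 by edgeR's quasi-likelihood test). Leaving out the 2 libraries that stand apart leaves a single library in ctrl and in SA1Q+gRNA, so only sizes are given. In that fit its log2 change against ctrl was 0.87 in SA1Q, 0.86 in SA2Q and 0.84 in SA2Q+gRNA. It was 0.80 in SA1Q+gRNA, 0.71 in SA1+gRNA and 0.80 in SA2+gRNA.

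These genes did not lie together. Counting members along the chromosome, ZNF90 is the 7th, ZNF738 the 17th, ZNF257 the 23rd, ZNF730 the 30th and ZNF726 the 35th. The median log2 change of the 29 neighbours against ctrl was 0.08 in SA1Q, 0.01 in SA2Q, -0.12 in SA1Q+gRNA, 0.07 in SA2Q+gRNA, 0.03 in SA1+gRNA and -0.03 in SA2+gRNA, where the median over all genes tested was at most 0.01 from 0. Some of these small medians turned sign with the processing, and those of SA2Q and SA2+gRNA did not. With an offset for transcript length and GC content the medians were -0.05 in SA1Q, 0.01 in SA2Q and -0.05 in SA1Q+gRNA. In the same fit they were 0.00 in SA2Q+gRNA, -0.05 in SA1+gRNA and -0.05 in SA2+gRNA. In SA1Q 11 of 29 neighbours were above 0 with the offset, against 23 of 29 without it. Without both libraries that stand apart the median in SA1Q+gRNA was 0.05, and without SA1Q+gRNA replicate 1 alone it was 0.06. Among the 10 tested genes of the interval that are not ZNF genes, 1 was called in any of the 12 comparisons. It was YJEFN3, named after its value was seen, with a log2 change of -0.80 in SA1Q against ctrl (adjusted p = 0.0468).

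The largest shift of the set as a whole was in a single library. In SA1Q+gRNA, replicate 1 was below replicate 2 for 30 of the 31 tested members, with a median log2 difference of -0.36, the exception being ZNF676. In the other 6 groups the median difference between replicates was -0.04 to 0.17, and over all genes in SA1Q+gRNA it was 0.00. The members summed to 182 CPM in SA1Q+gRNA replicate 1, against 237 CPM in replicate 2 and 221 to 256 CPM in the other 12 libraries. Across all tested genes in that group the replicate difference went with GC content (Spearman's rho of 0.53) and with transcript length (-0.38). Such relations were not limited to that group: rho with GC content was -0.42 in SA1+gRNA, -0.36 in SA1Q and -0.32 in SA2Q+gRNA, and rho with length was -0.37 in ctrl, as a description over genes, which are not independent replicates.

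**Figure D4:**
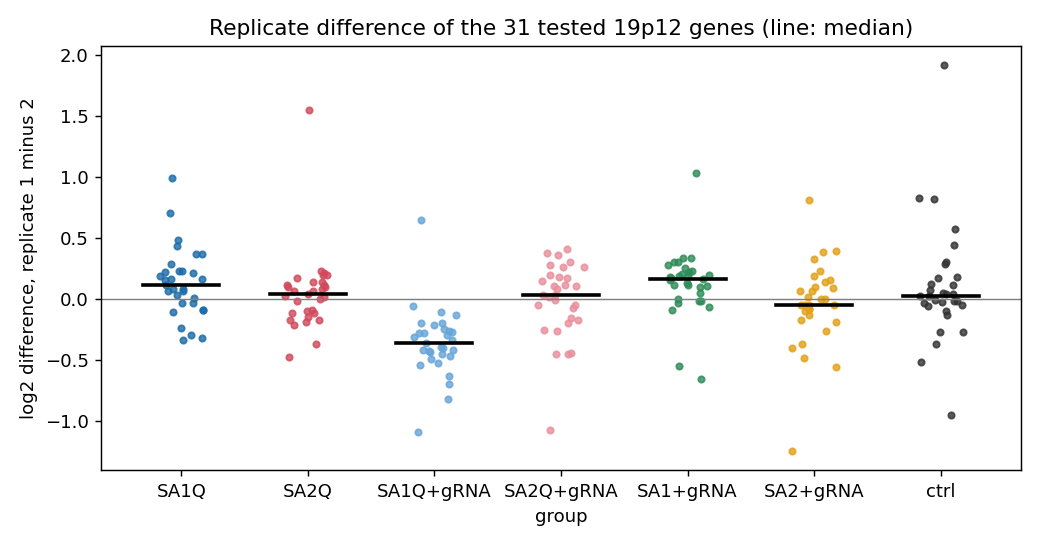
Log2 level of replicate 1 minus replicate 2 for the 31 tested members in each group, ctrl at the right; points are members and the bar in each group is their median. The SA1Q+gRNA members sit at a median of -0.36 with 30 of 31 below 0, and the other medians lie between -0.04 and 0.17.

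The median of the guide comparison moved with that library. In SA1Q+gRNA against SA1Q, the neighbours had a median log2 change of -0.20, and 3 of 29 were above 0. With an offset for transcript length and GC content the median was -0.04, and without both libraries that stand apart it was -0.05. When replicate 2 of SA1Q+gRNA was left out instead, so that replicate 1 stood alone for the group, 7 neighbours were called lower than in SA1Q, which were ZNF506, ZNF714, ZNF429, ZNF100, ZNF43, ZNF681 and ZNF254. That is 23.3% of 30 tested neighbours, where 12.6% of all genes were called in either direction. The same fit called 3 neighbours lower than in ctrl (2.75% of all genes were called), 2 lower than in SA2Q+gRNA (3.97%) and 8 lower than in SA1+gRNA (12.4%). In SA2Q+gRNA against SA2Q the median was 0.05.

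Over the 14 libraries the genes whose log2 levels followed ZNF257 most closely were COQ7 (Pearson's r of 0.903), PCDH1 (0.902), NTPCR (0.902), NOS2 (0.895) and FAM149A (0.890), none of them on chromosome 19. COQ7, for one, averaged 45.2 to 49.0 CPM in the SNAP-ADAR groups and 39.2 CPM in ctrl. Within the set the closest were ZNF726 (0.843), ZNF738 (0.825) and ZNF90 (0.811). For ZNF738 the closest genes were TCTN1 (0.916), MCPH1 (0.907), GTF2A2 (0.902), METTL9 (0.895) and SMIM19 (0.885), and within the set ZNF90 (0.859), ZNF257 (0.825) and ZNF730 (0.784). These correlations are descriptions picked as the highest of many, and they share the libraries and the low ctrl values. Over the 12 libraries without ctrl, ZNF257 and ZNF738 had an r of -0.15, so their likeness rests on the ctrl libraries.

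Partners of KRAB zinc finger proteins in heterochromatin formed a list of 36 genes outside the set, of which 35 were tested. None was called by edgeR in the 12 comparisons or in the joint test, and 0 to 6 had an unadjusted p under 0.05. The 6 were in SA1Q against ctrl, SA1Q+gRNA against SA1Q and SA1Q+gRNA against SA1+gRNA. Over all genes those comparisons had 3479, 2005 and 2857 of 16418 at that threshold. DESeq2 called 1 cofactor in SA1Q against ctrl, where it called 6.54% of all genes. It called 0 cofactors in the others, and limma called 0 in all. TRIM28, the corepressor, averaged 662 ± 23.1 CPM in SA1Q, 715 ± 38.4 CPM in SA2Q and 784 ± 160 CPM in SA1Q+gRNA. It averaged 714.5 ± 15.2 CPM in SA2Q+gRNA, 730 ± 86.1 CPM in SA1+gRNA and 759.5 ± 0.324 CPM in SA2+gRNA. The ctrl mean was 774 ± 4.33 CPM (SD, n = 2 each), below that of SA1Q+gRNA only. SETDB1, the H3K9 methyltransferase that TRIM28 recruits, averaged 76.7 to 81.9 CPM in the SNAP-ADAR groups, against 81.0 ± 10.1 CPM in ctrl (SD, n = 2).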

How the data were processed

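The 36 members, the gene lists and the rule for named genes were chosen with earlier results of these data known. Per the labels' protocols, polyadenylated RNA was sequenced paired-end after a strand-specific library preparation. The submitters' processing notes name Trim Galore, STAR 2.4.2a and hg19, with no role or order, and the tool that counted fragments is not given in the sources used here. The deposited count column held whole fragments per RefSeq transcript without normalization. The FPM column, a signal scaled by the authors to the library total per the file headers, only chose the transcript of each gene. The deposited FPKM column, which the authors scaled by transcript size and by library total per the file headers, served only in an alternative.

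Of 45595 accessions, 98.6% were named by a RefSeq table (GRCh38.p14, names only) or GENCODE. The 887 unnamed entries held 0.81% of counts and were left aside, as were 2309 named entries under 200 nt. Each of 22410 genes was represented by its transcript of highest mean FPM, and 16418 passed filterByExpr (minimum count 10). The test was that of edgeR 4.0.16, run in R 4.3.3 on the counts (TMM, quasi-likelihood, two-sided, all 14 libraries in 1 fit, no covariate, 7 residual degrees of freedom, biological coefficient of variation 8.67%), with Benjamini-Hochberg adjustment over all genes tested in each comparison. Every adjusted p is from that test unless another tool is named. The code was tested on simulated data. Coordinates are those of the files (hg19, counted from 1), save the promoters.

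The named genes were ZNF257, ZNF738, the 2 ZNF genes on each side of each, members called in any comparison, the 5 with the highest level per length, the genes most correlated with ZNF257 and ZNF738, and TRIM28 and SETDB1. Others were chosen after their values were seen. Alternatives were DESeq2 1.42.0, limma 3.58.1 on log2(FPKM + 0.1), RLE scaling, no filter, another transcript choice, a replicate block, a length and GC offset, halved counts for the library of even counts, and leaving out libraries.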

Additional observations from a re-analysis of the deposited data

How the results depend on the processing

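The number of neighbours called in SA1Q against ctrl was 1 and became 0 with the replicate block. It ran from 0 to 3 when a library was left out, 0 without any 1 of the 12 libraries outside SA1Q+gRNA and 3 (ZNF90, ZNF730 and ZNF726) without either SA1Q+gRNA library, while the calls over all genes ran from 38 to 1164 in those fits. Without the 2 libraries that stand apart, which leaves a single library in ctrl and in SA1Q+gRNA, the counts moved as given above with their shares over all genes. The count was 1 in SA1Q+gRNA against ctrl with the length and GC offset (3.45% of the neighbours, against 5.84% of all genes). With DESeq2 it was 1 in SA2Q+gRNA against SA2+gRNA (0.323% of all genes) and 1 in the joint test (8.28% of all genes). Leaving out a library gave 0 to 3 for SA1Q+gRNA against ctrl, 0 to 7 against SA1Q, 0 to 2 against SA2Q+gRNA and 0 to 8 against SA1+gRNA, each time the highest without SA1Q+gRNA replicate 2, where the lone sample is assumed to vary like the other groups. The number of cofactors called also moved over the alternatives. It moved most in SA1Q+gRNA against SA1Q without SA1Q+gRNA replicate 2, a fit that leaves 1 library in that group. The cause of these moves was not tested. None of the values recomputed for ZNF257, ZNF738, ZNF730, ZNF726 and ZNF90 against ctrl changed sign under an alternative. On the log2(FPKM + 0.1) scale, which compresses low values, ZNF257 changed by 0.95 to 1.60 against ctrl and ZNF738 by 0.44 to 0.91.

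Replicate numbers showed little pairing over most groups. Over 21 pairs of groups the correlation of same-numbered deviations ran from -0.15 to 0.45, with a median of -0.01 and 2 pairs over 0.1. Both libraries that stand apart, of ctrl and SA1Q+gRNA, were numbered replicate 1. A batch shared by only some same-numbered libraries was not tested. With the replicate block, 0 neighbours were called in SA1Q against ctrl, in any other comparison and in the joint test, and 304 of all genes in SA1Q against ctrl, against 460 without it. Depth limits ZNF738, ZNF730 and ZNF90, with 5 or 6 counts in ctrl as a whole, and the 5 members that were not tested.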
